A study of Mus musculus with 6 samples.

Results

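The group 1 late cornified envelope genes were followed as the 10 genes Lce1a1, Lce1b, Lce1c, Lce1d, Lce1e, Lce1f, Lce1g, Lce1h, Lce1i and Lce1m. They were taken by the gene name that the scanner files give to each non-control probe. The 10 genes were read by 12 of 39389 usable probes and made up 10 of the 23676 genes tested. The tissue was ear skin of mice, with 1 one-colour Agilent array per mouse. KO mice were deficient in NC16A (KO 1, KO 2 and KO 7) and WT mice were sufficient in it (WT 1, WT 2 and WT 3). NC16A is a segment of BP180, the collagen XVII of the junction between basal keratinocytes and dermis. The groups were matched in age and sex, per the design text. Strain, age, the cells in which the segment was lost and its extent are not given in the sources used here.

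Late cornified envelope proteins are small proteins rich in cysteine, glycine and serine. Keratinocytes make them at the end of their differentiation, and transglutaminases cross-link them to loricrin, involucrin and small proline-rich proteins into the tough shell of the dead surface cells. Their genes sit together in the epidermal differentiation complex, and the group 1 genes are known as those of normal skin, while the group 3 genes are known for their induction in injured or psoriatic skin.

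The probes decide how far these closely related genes can be told apart. The printed stretches are the most alike pair of probes, the 1 probe that the files list for further members, and the probe of Lce1m. Lce1m was the member with a negative difference on the main scale, and it did not pass. All positions are on mm9, as the scanner files give them, and each sequence is written 5′ to 3′. The first 2 lines give the first 30 bases of the Lce1h probe (chr3:92567302-92567331, minus strand) and of the second Lce1i probe (chr3:92581299-92581328, minus strand), with capitals at the bases that differ. The third line gives the second Lce1c probe (chr3:92484400-92484459, plus strand), and the fourth the first 30 bases of the Lce1m probe (chr3:92821859-92821888, minus strand).
Lce1h: aagacttcaAacaaatGgtgcaggaggagc
Lce1i: aagacttcaGacaaatAgtgcaggaggagc
Lce1c: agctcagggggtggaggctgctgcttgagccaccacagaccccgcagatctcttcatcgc
Lce1m: tctccctaaggctcatctaccacgaggtct
Over their full 60 bases the Lce1h probe and the second Lce1i probe matched at 56 positions. The next most alike pair, the Lce1d probe and the first Lce1i probe, matched at 46 of 60. The files list the second Lce1c probe also for Lce1e and Lce1f. Some cross-hybridisation between members is therefore possible, and it was not tested. The Lce1m probe matched those of the other members at no more than 23 positions. Probes were compared only with one another, not with transcripts. The second Lce1c probe matched the Lce1e probe at 22 positions and the Lce1f probe at 17, though the files list it for both genes. The low count for Lce1m therefore does not show which genes its probe reads.

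The 12 probes lay on chromosome 3, where the probes of 9 genes spanned 130.67 kb. Lce1m stood apart, 240.67 kb beyond Lce1i, and the whole set spanned 371.34 kb. Each gene was represented by its probe with the highest mean, and Lce1b alone was read by 10 copies of its probe.

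The labelled tissue could be checked against its markers. The keratinocyte genes Krt5, Krt14, Krt1 and Krt10 were well above background on all 6 arrays, as were Adipoq of adipocytes, Acta1 of skeletal muscle and Col2a1 of cartilage. Ear skin RNA here is thus a mixture, and fewer cells of a type cannot be told apart from less RNA per cell. The 3 WT arrays and the KO 1 array shared a slide (slide 1), while KO 2 and KO 7 were on another (slide 2). The KO arrays were dimmer: the 75th percentile of intensity over probes was 4416, 4164 and 3806 in KO 1, KO 2 and KO 7, against 6656, 5276 and 5513 in WT 1, WT 2 and WT 3. Over all genes, 469 (1.98%) were higher and 92 (0.389%) were lower in KO at an adjusted p under 0.05 (limma, Benjamini-Hochberg). When arrays were scaled to their median the split was 390 higher and 149 lower, and with quantile normalization it was 334 and 120. With no scaling it was 717 and 5923, and with scaling to the spike-in probes 577 and 11328. The log2 spike-in medians were 14.04, 14.43 and 14.32 in KO 1, KO 2 and KO 7. They were 13.82, 14.12 and 13.84 in WT 1, WT 2 and WT 3, so that KO 1 lay below WT 2. Scaling to these probes thus lowers the KO values further, by construction.

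All 10 group 1 genes were bright and were well above background on all 6 arrays. None of the 10 passed in either direction on the scale set by the 75th percentile, against 2.37% of all genes (limma, adjusted p under 0.05). At an unadjusted p under 0.05 there were 2, Lce1a1 and Lce1m. The share of all genes at this unadjusted threshold was not counted. The unadjusted counts given here and below therefore have no background beside them and are a description only. On that scale 9 genes had positive differences between 0.10 and 0.40, and Lce1m had a negative difference of -0.44. The median of the 10 was 0.25, beside a median of 0.054 over all genes. The sign of the 9 depended on the scaling: quantile normalization turned 7 of them negative, and all 9 were negative in the unscaled and in the spike-in scaled values.

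**Figure D1:**
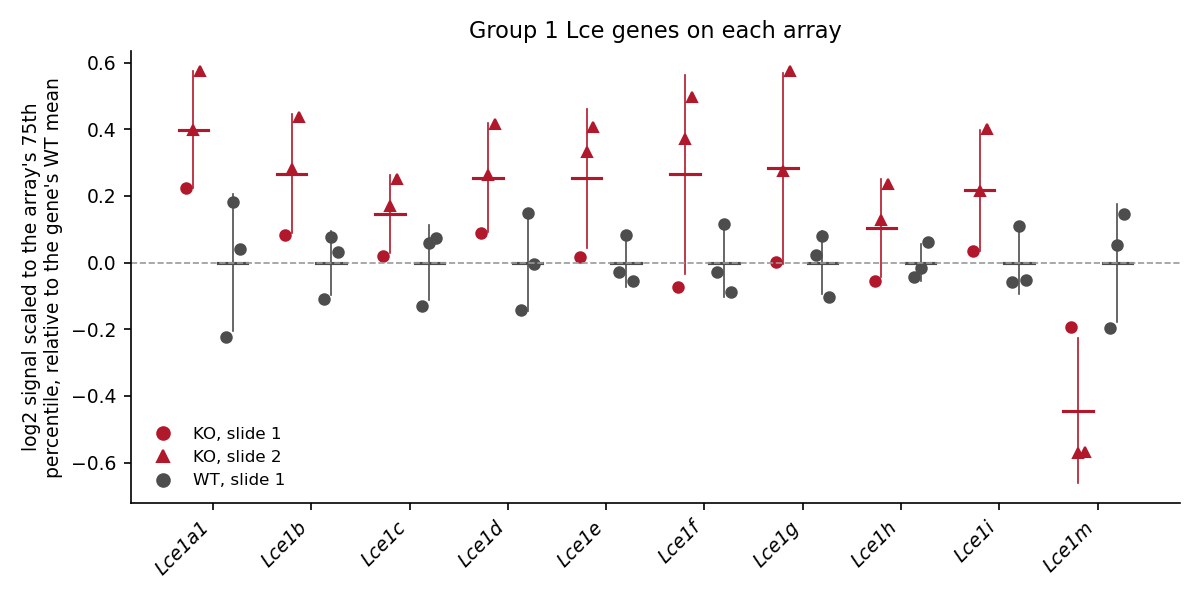
Log2 signal of each group 1 Lce gene on each array, scaled to the array's 75th percentile and given relative to the gene's WT mean (KO in red, left; WT in grey, right; bars show the mean and 1 SD, n = 3 each). KO 7 was the highest array for 9 genes on this scale, KO 1 mostly lay among the WT arrays, and KO 2 and KO 7 were the lowest for Lce1m; the differences of those 9 genes turn negative without scaling.

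Lce1a1 had the largest positive difference on this scale. Its log2 signal relative to the 75th percentile was 6.55, 6.72 and 6.90 in KO 1, KO 2 and KO 7, against 6.10, 6.51 and 6.37 in WT 1, WT 2 and WT 3. The groups did not overlap, as was so with KO above in 21.4% of all genes. The difference was 0.40 ± 0.16 (SE; limma, Benjamini-Hochberg adjusted p = 0.18), and its 95% confidence interval ran from 0.0053 to 0.79. The deposited intensities ran the other way, at 413423, 440128 and 454066 in KO and 457434, 479646 and 454839 in WT. Every KO intensity of Lce1a1 was thus below every WT intensity, by a little in KO 7.

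Lce1b gave 5.94, 6.13 and 6.29 in KO 1, KO 2 and KO 7, and 5.75, 5.93 and 5.89 in the 3 WT mice. The groups were separate by a narrow gap between KO 1 and WT 2, and the difference was 0.27 ± 0.14 (adjusted p = 0.27). These were the only members with every KO array above every WT array.

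In the other genes of the main cluster KO 1 reached into or below the WT range. Lce1c gave 6.12, 6.27 and 6.35 in KO 1, KO 2 and KO 7, and 5.97, 6.16 and 6.17 in WT (difference 0.15 ± 0.13, adjusted p = 0.49). Lce1d gave 6.15, 6.33 and 6.48 in KO, and 5.92, 6.21 and 6.06 in WT (difference 0.26 ± 0.15, adjusted p = 0.30). In both genes KO 2 and KO 7 were above all WT arrays and KO 1 was not. Lce1e gave 5.25, 5.57 and 5.65 in KO, and 5.21, 5.32 and 5.18 in WT (difference 0.25 ± 0.15, adjusted p = 0.30). Lce1f gave 5.32, 5.76 and 5.89 in KO, and 5.36, 5.51 and 5.31 in WT (difference 0.26 ± 0.18, adjusted p = 0.36). The spread among the KO mice was wider for Lce1f, with an SD of 0.30 in KO and 0.10 in WT. Lce1g gave 5.24, 5.51 and 5.81 in KO, and 5.26, 5.32 and 5.14 in WT (difference 0.28 ± 0.18, adjusted p = 0.32). Lce1h gave 4.16, 4.35 and 4.45 in KO, and 4.17, 4.20 and 4.28 in WT (difference 0.10 ± 0.13, adjusted p = 0.63). Lce1h was the gene in which KO 1 fell below all 3 WT arrays. Lce1i gave 5.90, 6.07 and 6.26 in KO, and 5.80, 5.97 and 5.81 in WT (difference 0.22 ± 0.14, adjusted p = 0.35).

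The 9 genes therefore moved from array to array in much the same way. KO 7 was the highest of the 6 arrays in each of them and KO 2 the second highest. Against the 3 WT arrays of its own slide, KO 1 differed by -0.074 for Lce1f, -0.054 for Lce1h and 0.00122 for Lce1g, and by 0.22 at most, for Lce1a1. The median of the 10 within slide 1 was 0.018. The slide and the genotype cannot be told apart for KO 2 and KO 7, since no WT array was on slide 2.

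The second probes of Lce1c and Lce1i did not pass either. That of Lce1c, shared with Lce1e and Lce1f, gave 5.37, 5.35 and 5.51 in KO, and 5.08, 5.24 and 5.37 in WT, a difference of 0.18 ± 0.14. That of Lce1i, the near match of the Lce1h probe, gave 4.57, 4.49 and 4.94 in KO, and 4.55, 4.57 and 4.55 in WT, a difference of 0.11 ± 0.16 beside 0.22 on the first probe. KO 2 was below all WT arrays on this second probe and above them all on the first, so the 2 Lce1i probes disagree for that mouse. The groups overlapped on both second probes.

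Lce1m was the member that differed from the rest. Its log2 signal relative to the 75th percentile was 5.59, 5.22 and 5.22 in KO 1, KO 2 and KO 7, against 5.59, 5.84 and 5.93 in WT 1, WT 2 and WT 3. KO 2 and KO 7 were below all WT arrays, and KO 1 lay level with WT 1. The difference was -0.44 ± 0.17, with a 95% confidence interval from -0.85 to -0.042 (limma, Benjamini-Hochberg adjusted p = 0.16). It lay at percentile 12.7 of the differences of all genes. Its deposited intensities were 213307, 154911 and 141834 in KO and 320743, 302150 and 336632 in WT, so that each KO array was dimmer than each WT array.

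Lce1m was at the lowest difference of the 10 genes in the reported fit and under all 24 alternatives, and its sign was negative in each. The alternatives that only rescale whole arrays keep the order of the genes by construction. It passed in 3 of the 24. Unscaled, it fell by 0.93 ± 0.19 (adjusted p = 0.038), where 25% of all genes were called lower. Scaled to the spike-in probes it fell by 1.27 ± 0.34 (adjusted p = 0.0074), where 47.8% of all genes were called lower. With arrays weighted by their quality it fell by 0.58 ± 0.11 (adjusted p = 0.014), where 13% of all genes were called lower. Within slide 1 the difference was -0.19 (adjusted p = 0.91), from KO 1 alone, and with slide as a fixed block the unscaled difference was -0.58 (adjusted p = 0.40). Leaving out KO 1 gave -0.57 (adjusted p = 0.090), and leaving out any other array gave between -0.54 and -0.37.

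**Figure D2:**
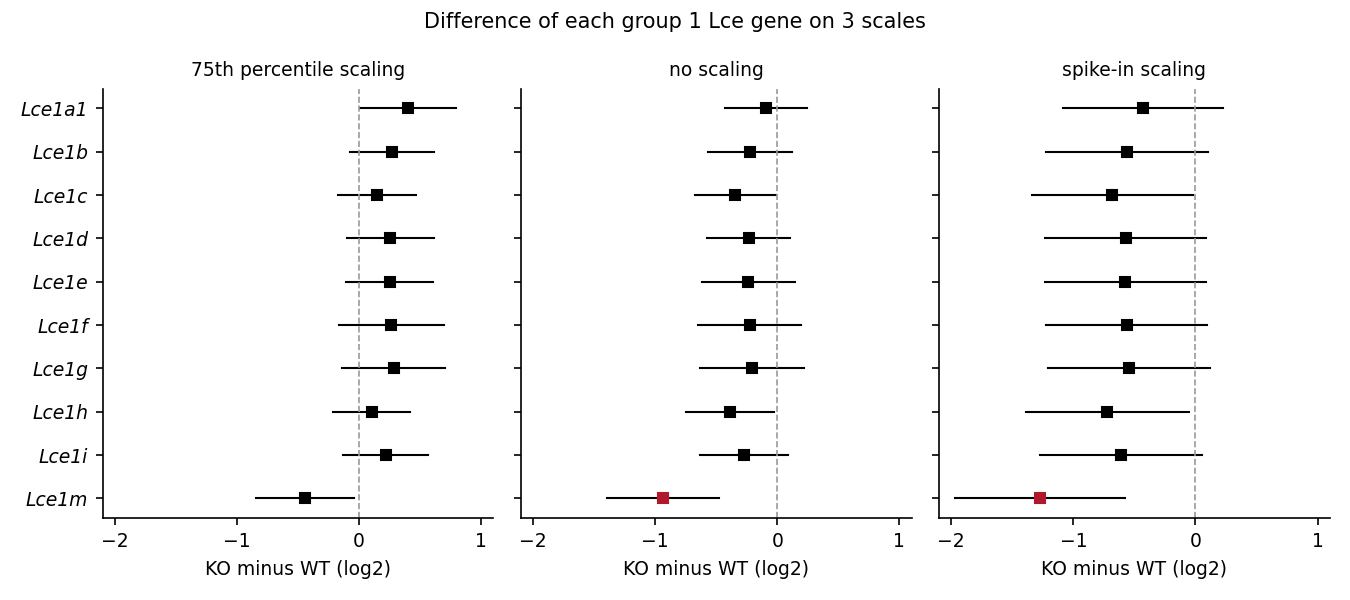
Difference of each group 1 Lce gene (log2, KO minus WT) with its 95% confidence interval, for 75th percentile scaling, no scaling and spike-in scaling (red marks an adjusted p under 0.05 in limma). The 9 other genes lie right of 0 in the first panel and left of 0 in the other panels, and Lce1m lies left of 0 in all 3, at -0.44, -0.93 and -1.27.

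The unscaled values put all 10 genes lower in KO, with a median of -0.24, where the median of all genes was -0.44. In 8 of the 10 every KO array was below every WT array, which held for 55.3% of all genes. With spike-in scaling the median of the 10 was -0.57, where that of all genes was -0.77. The members' median lay 0.20 above that of all genes on the 75th percentile scale, and it is the same without scaling and with spike-in scaling by construction, since these move all genes of an array alike. This offset was 0.021 with slide as a fixed block, and -0.017 after quantile normalization.

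The 10 genes had mean signals between percentiles 94.7 and 99.8 of all genes. No spot was saturated, and the brightest value of a member, that of Lce1a1 in WT 2, was 61.7% of the saturation level. The 234 other genes among the brightest 1% had a median difference of 0.43 (quartiles 0.36 and 0.47), and none passed (limma; 174 higher at an unadjusted p under 0.05). Their median was -0.056 with no scaling, -0.39 with spike-in scaling and 0.015 after quantile normalization. The shifts without scaling and with spike-in scaling are the same for every gene by construction. The part of signal strength in the members' differences was not tested.

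A comparison within each array needs no scaling between arrays. Taken as the gene's log2 signal minus the mean of the other 9 members on the same array, Lce1m was at -0.031, -0.64 and -0.79 in KO 1, KO 2 and KO 7, against 0.085, 0.16 and 0.36 in WT 1, WT 2 and WT 3. All KO values were below all WT values, and the means differed by -0.69. KO 1 was the nearest to the WT values, as it was on the other scales. This measure was chosen after the values were seen, and it carries no test.

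On the same measure Lce1a1 was at 1.03, 1.03 and 1.08 in KO, against 0.65, 0.90 and 0.84 in WT. Lce1b differed by 0.10 and Lce1d by 0.090, and in these 3 genes the KO values lay above the WT values, again with no share of all genes counted. The other 6 genes overlapped, with differences between -0.079 and 0.12. Part of each positive value comes from Lce1m, which is in the mean of the others.

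**Figure D3:**
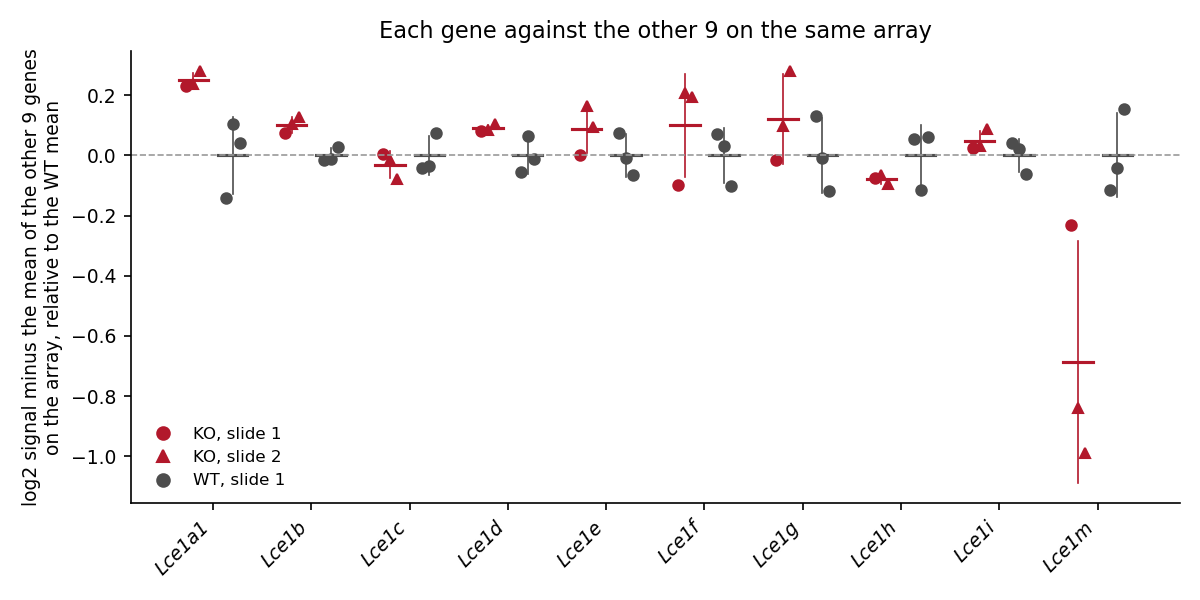
Log2 signal of each group 1 Lce gene minus the mean of the other 9 on the same array, relative to the gene's WT mean (KO in red, left; WT in grey, right; bars show the mean and 1 SD, n = 3 each). Lce1m is lower in KO 2 and KO 7 and nearer to the WT arrays in KO 1, while the KO means of the other genes lie between -0.079 and 0.25.

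Upstream sequence was compared as well. RefSeq gives a start site on GRCm38.p6 for 9 of the 10 genes, Lce1f being the exception here. The 300 base windows around these start sites matched one another with median identities from 64.9% to 69.5% for the 8 others, and with a median of 50.2% for Lce1m. The most alike were those of Lce1g and Lce1i, at 86%. The lines below give the 100 bases before the start site, all on the minus strand, for the pair that is most alike, for Lce1m, and for Lce1d, the other gene with a TATAAA match, which is in capitals. They lie at chr3:92687211-92687310 (Lce1d), chr3:92752339-92752438 (Lce1g), chr3:92778900-92778999 (Lce1i) and chr3:93019062-93019161 (Lce1m).
Lce1d: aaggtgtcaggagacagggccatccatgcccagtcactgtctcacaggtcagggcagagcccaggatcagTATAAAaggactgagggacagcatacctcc
Lce1g: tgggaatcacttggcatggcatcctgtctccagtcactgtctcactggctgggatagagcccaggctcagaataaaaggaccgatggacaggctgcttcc
Lce1i: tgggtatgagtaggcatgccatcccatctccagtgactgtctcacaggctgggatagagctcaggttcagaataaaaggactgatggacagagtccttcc
Lce1m: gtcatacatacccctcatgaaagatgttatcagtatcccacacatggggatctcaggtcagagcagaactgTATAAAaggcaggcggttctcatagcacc
TATAAA, searched on both strands, was found in 2 of the 9 windows, at 30 bases before the start site in Lce1d and 29 in Lce1m, and in 13.6% of the 32851 windows of the table. TGACTCA or TGAGTCA, the letters bound by AP-1 factors, was in 0 of 9 windows and in 5.20% of all. CACCC or its complement, found in sites of Klf factors, was in 4 of 9 (Lce1b, Lce1c, Lce1e and Lce1h) and in 57.5% of all. The search took exact letters only. The printed Lce1g and Lce1i stretches hold aataaa at the place where Lce1d has TATAAA, so the other windows may hold similar letters that were not counted. Whether upstream sequence bears on the differences was not tested.

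Several genes around the group 1 cluster had larger differences. Between the first and the last member probe there were 14 other genes, with a median difference of 0.49, of which none passed (limma; 8 higher and 1 lower at an unadjusted p under 0.05). Within 1000 kb on either side there were 56, with a median of 0.48, of which 10 were higher and none lower. The calls were in the small proline-rich genes, in Tchhl1, Crnn, Tchh and Prr9 and in 1 unnamed transcript. Among them Sprr2b and Sprr2k entered the test through the KO arrays alone. The window was chosen after the data were seen.

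**Figure D4:**
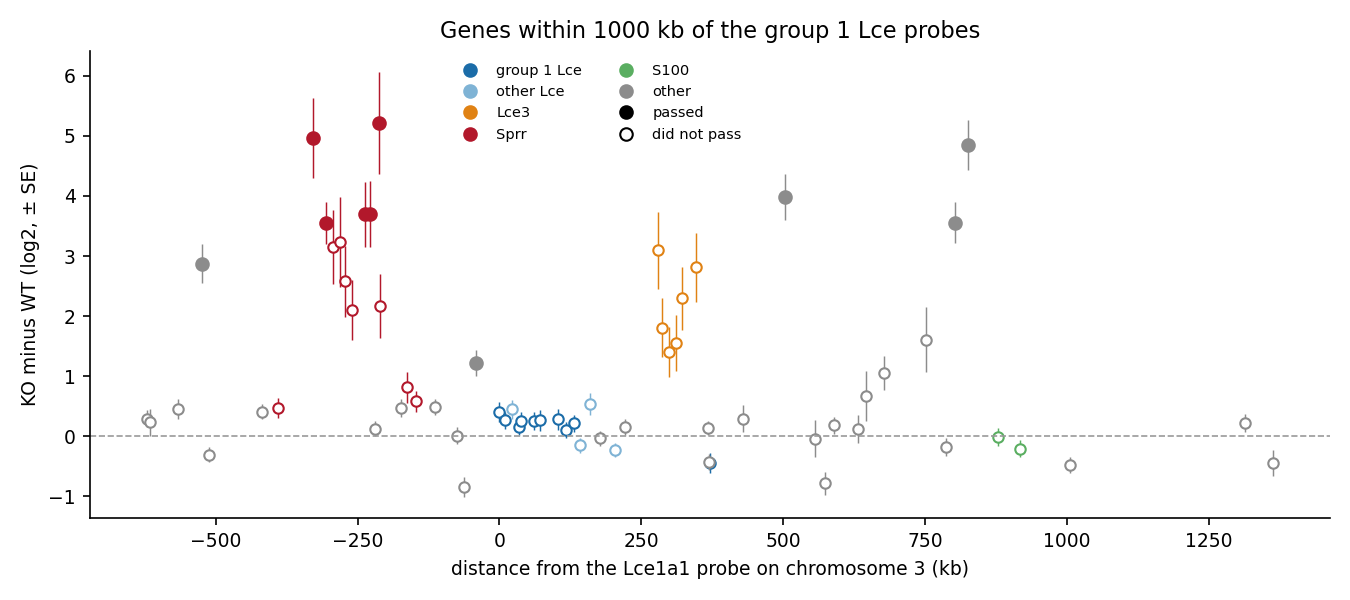
Difference of each gene measured within 1000 kb of the group 1 Lce probes (log2, KO minus WT) with its SE, against distance from the Lce1a1 probe (filled, adjusted p under 0.05 in limma; open, did not pass). The group 1 Lce genes lie between -0.44 and 0.40, with the group 3 Lce genes at a median of 2.05 and the Sprr genes at a median of 3.15; the group 1 genes other than Lce1m turn negative without scaling.

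A list of 12 measured genes outside the set held the other Lce genes and also Lelp1 (-0.30) and Crct1 (0.14), which are not Lce genes. None of the 12 passed, and their median was 0.97 (limma; 8 higher and 1 lower, Lelp1, at an unadjusted p under 0.05). Higher and lower calls among these 12 were 3 and 0 with normexp background, and 6 and 2 with array weights. They were 2 and 3 with no scaling (median 0.48), and 3 and 3 with spike-in scaling (median 0.14). The shares of all genes lower were 13% with array weights, 25% with no scaling and 47.8% with spike-in scaling. With array weights 19.2% of all genes were higher. The 4 other group 1 genes were on both sides of 0, at 0.53 for Lce1k, 0.45 for Lce1a2, -0.15 for Lce1j and -0.23 for Lce1l. The 6 group 3 genes were all positive, with a median of 2.05. Lce3f was at -0.018, -0.82 and 1.07 in KO 1, KO 2 and KO 7, against -1.87, -3.49 and -2.85 in WT, a difference of 2.81 ± 0.57 (adjusted p = 0.060), with 2.72 for KO 1 within slide 1. Lce3a differed by 3.099 ± 0.64 (adjusted p = 0.061). For both genes every KO array was above every WT array, as was so in 21.4% of all genes. Both were named for having the smallest p of their list. In 8 of the 10 group 1 genes the KO arrays were not all above the WT arrays.

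The small proline-rich genes, whose products are cross-linked to the same envelope, had 5 of 13 measured members higher in KO, none lower, and a median of 3.15. The median within slide 1 was 3.09. The count was 0 with slide as a fixed block, 1 on slide 1 alone or without WT 2, and 2 without WT 3 or without KO 7. It was 5 with slide as a random block, 8 with normexp background or no scaling, and 10 with spike-in scaling. With array weights it was 13, where 19.2% of all genes were called higher. Sprr2d was at 3.48, 3.52 and 4.27 in KO 1, KO 2 and KO 7, against 0.75, -0.40 and 0.27 in WT, and it rose by 3.55 ± 0.35 (adjusted p = 0.0057). Sprr2i rose by 3.69 ± 0.55 (adjusted p = 0.025) and the pseudogene Sprr2j-ps by 3.70 ± 0.56 (adjusted p = 0.027). Sprr2b, which was at background on all 3 WT arrays, was at least 12.6-fold higher in KO (adjusted p = 0.017), and the fifth was Sprr2k. Sprr2b and Sprr2k were well above background on the KO arrays only. They entered the test through that group alone, so their calls are a description only. With the filter on all 6 arrays 4 Sprr genes were called higher and 7 did not pass, with a median of 2.58. Sprr genes are close copies, and how far their probes share signal was not tested.

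Of 17 other envelope substrates 3 rose and none fell, with a median of 0.40 on this scale. With no scaling 3 were lower (median -0.091), where 25% of all genes were called lower. With spike-in scaling 7 were lower (median -0.43), where 47.8% of all genes were. On each of these scales 3 were higher, beside 3.03% of all genes with no scaling and 2.44% with spike-in scaling. With array weights 8 were higher and 2 lower, beside 19.2% and 13% of all genes, and with the replicate block none passed. The calls were Tchhl1 (4.85 ± 0.41, adjusted p = 0.0037), Crnn (3.98 ± 0.38, adjusted p = 0.0054) and Tchh (3.56 ± 0.34, adjusted p = 0.0057). Tchh encodes trichohyalin, a protein of the inner root sheath of hair. The main envelope protein gene Lor differed by 0.45 (adjusted p = 0.15), a sign that turns without scaling, Ivl by 0.012 and Flg2 by -0.78 (adjusted p = 0.086).

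Among 17 transglutaminases and other envelope enzymes 2 rose and none fell, with a median of 0.20. The count was 1 without WT 2 or with slide as a fixed block, and 2 with slide as a random block. The 2 were the peptidylarginine deiminase genes Padi3 (4.31 ± 0.35, adjusted p = 0.0032) and Padi1 (1.33 ± 0.15, adjusted p = 0.0088). With no scaling 4 of the 17 were lower, beside 25% of all genes, and with spike-in scaling 5, beside 47.8% of all genes. None of 18 suprabasal genes passed (median 0.24; 4 higher and 1 lower at an unadjusted p under 0.05), with Krt1 at 1.16 ± 0.29 (adjusted p = 0.087) and Krt2 at 0.47 ± 0.16 (adjusted p = 0.13). None of 28 regulators of the differentiation complex passed (median 0.011; 6 higher at an unadjusted p under 0.05), with Notch1 at 1.73 ± 0.55 (adjusted p = 0.12) and Ovol1 at 0.59 ± 0.20 (adjusted p = 0.14). None of 10 basal keratinocyte genes passed (median 0.13; 2 higher and 1 lower at an unadjusted p under 0.05), with Krt5 at 0.54 ± 0.15 and Krt14 at 0.50 ± 0.15 (adjusted p = 0.10 and 0.11). The medians of these last 4 lists were negative in the unscaled values. With spike-in scaling 5 suprabasal, 14 regulator and 5 basal genes were called lower, where 47.8% of all genes were. With no scaling they were 2, 4 and 1, where 25% of all genes were called lower.

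Markers of other cell types and states in the skin were measured on the same arrays. Hair follicle markers were higher in KO for 16 of 17 genes. With the filter on all 6 arrays 14 were called higher and 1 did not pass. The count was 9 with slide as a fixed block, 7 on slide 1 alone, 11 without WT 2 or without KO 2, and 0 with the replicate block. Their median was 3.89, or 4.18 within slide 1, and Krt35 rose by 3.099 ± 0.22 (adjusted p = 0.0019). The summed level of that list, as its mean relative to the WT mean, was 2.95 to 3.79 in KO and -0.31 to 0.53 in WT. Wound and stress markers were higher for 6 of 8, for 2 with slide as a fixed block or on slide 1 alone, and for 0 with the replicate block. Their median was 2.64, or 2.62 within slide 1, and their list mean was 2.58 to 3.39 in KO and -0.53 to 0.45 in WT. S100a9, a calprotectin gene, rose by 4.69 ± 0.30 (adjusted p = 0.0019).

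Sebaceous markers had 1 of 10 genes higher, Elovl3 (1.56 ± 0.17, adjusted p = 0.0085), and a list mean of 0.17 to 0.27 in KO and -0.29 to 0.43 in WT. The count higher was 0 without WT 2, with slide as a fixed block or with the replicate block. Higher and lower sebaceous counts were 3 and 1 without WT 1, and 4 and 2 with array weights. They were 1 and 4 with no scaling, and 0 and 5 with spike-in scaling. Adipocyte markers had none of 10 that passed, with all 10 negative and 4 lower at an unadjusted p under 0.05. Over all genes, 13% were called lower with array weights, 25% with no scaling and 47.8% with spike-in scaling. With array weights 19.2% of all genes were called higher. These shares stand beside all counts of this paragraph. With array weights or spike-in scaling all 10 adipocyte markers were called lower, and with no scaling 6. These markers had a list mean of -1.30 to -0.40 in KO and -0.80 to 0.56 in WT. Skeletal muscle markers had none of 10 that passed (2 lower at an unadjusted p under 0.05; 3 called with array weights, 2 with no scaling and 9 with spike-in scaling), with a list mean of -1.25 to -0.19 in KO and -0.62 to 0.49 in WT. Cartilage markers had none of 9 that passed (4 lower at an unadjusted p under 0.05; 5 called with array weights or no scaling and 6 with spike-in scaling), with a list mean of -0.58 to -0.32 in KO and -0.078 to 0.060 in WT. The part of these cell types in the differences of the group 1 genes was not tested.

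**Figure D5:**
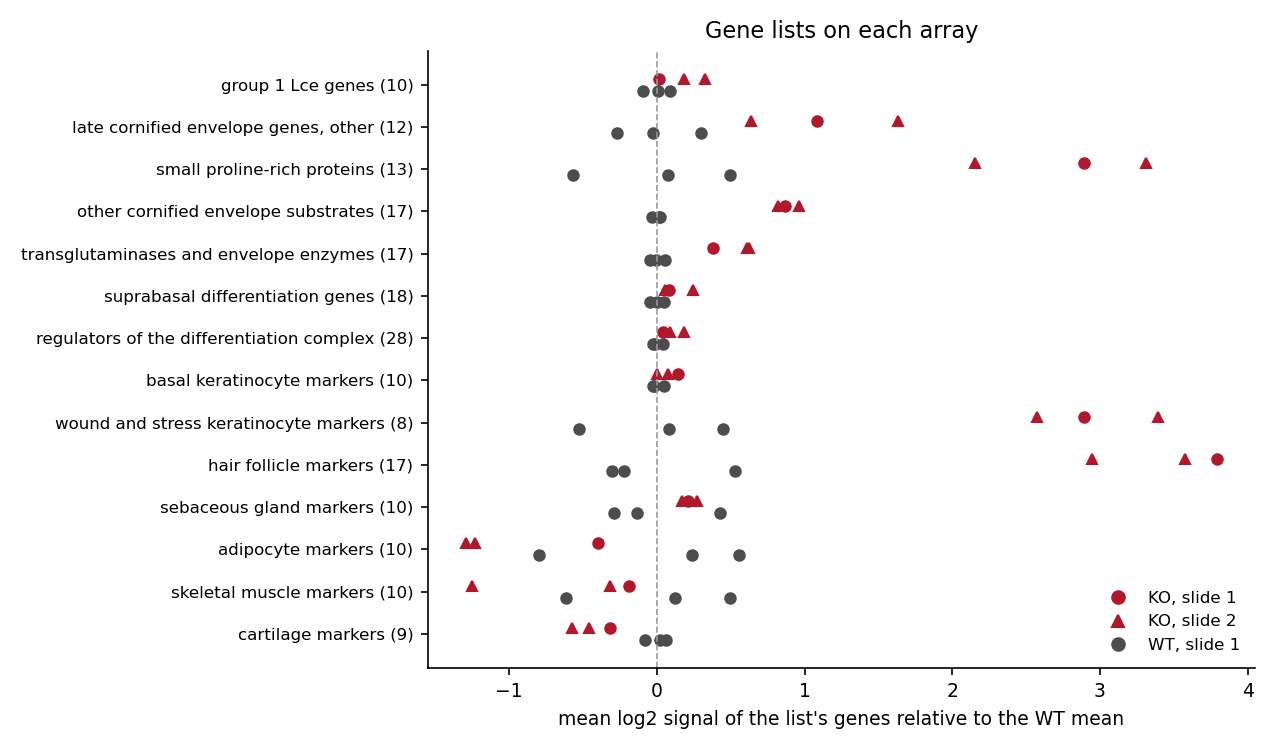
Mean log2 signal of each gene list on each array, scaled to the array's 75th percentile and given relative to the WT mean (KO in red, upper marks; WT in grey, lower marks; number of genes in parentheses). The group 1 Lce genes lie between 0.015 and 0.32 in KO and between -0.094 and 0.089 in WT on this scale and turn negative without scaling, while small proline-rich, wound and hair follicle lists lie at 2.15 or more in KO.

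The group 1 genes were not alone in their pattern over the arrays. The mean of the 10, centred over the 6 arrays, was followed most closely by Rbx1, a subunit of cullin ubiquitin ligases, at a root mean square distance of 0.017 on the log2 scale. Ccm2 (0.017), Spsb2 (0.023), Ahnak (0.028) and Smpd1 (0.030) came next. The members themselves lay between 0.040 for Lce1i and 0.38 for Lce1m from that mean, and 278 genes were closer to it than the median member. The 6 arrays share scaling and slide, so that this likeness is a description only.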

How the data were processed

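Values came from 6 one-colour arrays of total ear skin RNA, 1 per mouse. The deposited values are processed intensity values from Agilent Feature Extraction 10.7.3.1, per the file headers, background-subtracted and detrended within the array, with surrogates for low values and no scaling between arrays. Array number limits the precision: with 3 mice per group, p-values measure the spread among these mice.

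Outlier spots were left out and spots of a probe averaged. The values are log2 of intensity minus the array's 75th percentile over usable probes. Of 39389 usable probes, 29602 well above background on at least 3 arrays were kept, and each of 23676 genes took its probe with the highest mean. All 12 probes of the set had an accession that gave the same symbol in RefSeq. The comparison of KO to WT was fitted in limma (version 3.58.1, under R 4.3.3) with lmFit and eBayes. Tests were two-sided, p-values were adjusted over all genes by Benjamini-Hochberg, and the threshold was 0.05. The fit was tested on simulated data. Where every array of a group was at background, the fold change is a lower limit set by the dimmest signal well above background there.

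Members and gene lists were chosen with earlier results of these data known. Named genes are all members, in each list up to 4 that passed with the smallest p (or the 2 with the smallest p), and the 5 named genes closest in pattern. Others given for comparison (Lor, Ivl, Flg2, Lelp1, Crct1, Sprr2k, Prr9 and the other group 1 genes) were chosen after their values were seen. Alternatives changed the background correction, scaling, filter, probe summary, source of values and variance model, took replicate number or slide as a block, used slide 1 alone, and left out each mouse. No scaling, and scaling to the median of the E1A spike-in control probes, each also with slide as a block, were chosen after the data were seen. Replicate numbers 1 and 2 occur in both groups, and no pairing is stated. The deviations of same-numbered mice correlated at 0.083 and 0.054, beside 0.079 and 0.038 for crossed pairs. With so few pairs these values cannot exclude a pairing, and the reported fit treats the mice as unpaired. Sequences are from the scanner files (probes, mm9) and RefSeq (GRCm38.p6). Other tools were Biopython 1.88, matplotlib 3.10.9, numpy 2.4.6 and pandas 2.3.3, in Python 3.11.15.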

Additional observations from a re-analysis of the deposited data

How the results depend on the processing

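Quantile normalization gave -0.052 for Lce1a1, -0.063 for Lce1b, -0.23 for Lce1c, -0.12 for Lce1d, -0.010 for Lce1f, -0.046 for Lce1h and -0.12 for Lce1i, with a median of -0.058 over the 10 genes. The array median gave -0.034 for Lce1h. With slide as a fixed block, and on slide 1 alone, Lce1f was at -0.074, Lce1h at -0.054 and the median at 0.018. With no scaling Lce1a1 to Lce1i were at -0.091, -0.22, -0.34, -0.23, -0.24, -0.22, -0.21, -0.39 and -0.27 (median -0.24), and with slide as a block as well at -0.17, -0.31, -0.37, -0.30, -0.37, -0.46, -0.39, -0.44 and -0.35 (median -0.37). With spike-in scaling they were at -0.43, -0.56, -0.68, -0.57, -0.57, -0.56, -0.54, -0.72 and -0.61 (median -0.57), and with the slide block at -0.28, -0.42, -0.48, -0.42, -0.49, -0.58, -0.50, -0.56 and -0.47 (median -0.49). The count of the 10 called lower was 1, Lce1m, with array weights, no scaling and spike-in scaling. The cause was not tested.

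Leaving out 1 array in turn gave medians of the 10 from 0.14 to 0.35, 0 calls among them, 183 to 719 genes higher and 19 to 254 lower. The lowest count higher was without WT 2 and the lowest lower without WT 2 or WT 3, and both highest counts were without KO 1. The replicate block called 0 genes of all and 0 of the 10, with a median of 0.12 and Lce1m at -0.31, and it left 1 residual degree of freedom. All genes higher and lower were 860 and 135 with normexp background, and 390 and 149 with the array median. They were 158 and 10 with slide as a fixed block and 403 and 76 with slide as a random block. No filter gave 269 and 27, an intensity trend 677 and 138, and array weights 4546 and 3076. Sprr genes called higher were 1 to 5 with an array left out, 0 with slide as a fixed block or the replicate block, and 13 with array weights. Hair follicle markers called higher were 11 to 16 with an array left out, 9 with slide as a fixed block and 0 with the replicate block. Wound markers were 4 to 5, 2 and 0 in the same fits. Slide as a random block called 5 Sprr genes, 16 hair follicle markers and 5 wound markers higher.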
